A study of Homo sapiens with 4 samples.

Results

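The delta protocadherins PCDH1, PCDH7, PCDH8, PCDH9, PCDH10, PCDH17, PCDH18 and PCDH20 are described here by where MEIS1 and MEIS2, a pair of transcription factors, bound around their genes. They are 8 of 19229 autosomal protein-coding genes in GENCODE 44 mapped to GRCh37, and the family was chosen by the strength of 1 site in PCDH9. That site ranked 9 of 5169 reproducible sites by its −log10 p of 1360, where the sites at ranks 10 and 11 had 1318 and 1301. The choice used this value, so it is given as a description, and the values of the other sites and genes are set beside those of all sites or genes without a test. X-linked delta protocadherins are not analysed here.

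Delta protocadherins are transmembrane adhesion proteins of the cadherin superfamily that bind the same protein on a neighbouring cell and are best known from the developing nervous system, where they take part in cell sorting, migration, axon growth and synapse formation. PCDH1, PCDH7 and PCDH9 form the delta-1 subgroup, whose cytoplasmic tails bind protein phosphatase 1. PCDH8, PCDH10, PCDH17 and PCDH18 form the delta-2 subgroup, several of which recruit the WAVE complex, a regulator of actin branching, and PCDH20 is set apart in some classifications. MEIS1 and MEIS2 are TALE homeodomain factors that bind a TGACAG core, often together with PBX factors.

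The study mapped MEIS binding in human neural stem cells (hNSC) with ChIP-seq, the sequencing of immunoprecipitated chromatin. The cells were an untreated commercial culture, kept undifferentiated in serum-free stem cell medium on a Geltrex coating. There were 2 MEIS ChIP samples and 2 Input samples, and Input, sheared chromatin without immunoprecipitation, entered the values only through peak calling. The immunoprecipitation used an anti-MEIS1/2A and an anti-MEIS1 antibody together, so a peak does not tell MEIS1 from MEIS2. Per the study's methods, 2 batches of hNSC were taken through the ChIP side by side, and neither they nor the labels tie replicate 1 or 2 to a batch. No expression values are used here, so the identity of the cells was not checked by marker genes. Occupancy in more cells and stronger occupancy in each cell cannot be told apart.

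Replicate 1 held 36796 peaks and replicate 2 held 47449, with a median fold enrichment over Input of 2.44 and 3.19, and the read depth of either library is unknown. A site is 1 row of the authors' list of 5169 reproducible sites, made with the irreproducible discovery rate (IDR), which keeps peaks that rank alike in both replicates. Sites and peaks were assigned to a gene where the summit, the base of highest signal, lay in the gene body or within 250 kb of it. Strength is the −log10 p of the peak caller. For a site this was the lower of its replicate values at 19 of the 19 sites below.

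MEIS sites fell at 3 of the 8 genes and were absent from the windows of the other 5. PCDH9 had 10 sites, PCDH8 had 5 and PCDH18 had 4, and PCDH1, PCDH7, PCDH10, PCDH17 and PCDH20 had 0. Over all autosomal protein-coding genes, 48.8% had at least 1 site within 250 kb, against 37.5% of the 8, a share near the background. Counted in gene bodies alone, PCDH9 was the 1 gene of the 8 with sites (8 of them), and within 500 kb PCDH1 and PCDH10 also had 3 and 2.

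Because a longer gene has a longer window, each gene was placed among the 200 autosomal protein-coding genes nearest to it in body length. PCDH9 (ENSG00000184226, chr13:66876966-67804577, minus strand) has a body of 927.6 kb, and its 10 sites stood at percentile 97.5 of genes of 571.6 to 1276 kb, of which 2.5% had as many or more and the median gene had 2. PCDH8 (ENSG00000136099, chr13:53417024-53422776, minus strand) is 5.75 kb long, and its 5 sites stood at percentile 99.8, with 0.5% of like genes having as many or more. PCDH18 (ENSG00000189184, chr4:138440072-138453648, minus strand) is 13.6 kb long, and its 4 sites stood at percentile 99.2, with 1% having as many or more. Per length of window, these are 7 sites per Mb at PCDH9, 9.89 at PCDH8 and 7.79 at PCDH18. The 5 genes without a site stood between percentile 13.2 (PCDH7) and 28.7 (PCDH20). No like gene can have fewer than 0, so these values are 0.5 of the share of like genes that also had 0. The median like gene had 0 sites for PCDH1, PCDH10 and PCDH20, and 1 for PCDH7 and PCDH17. The median percentile over the 8 genes was 28.2, which lies among these tied values. Without replicate 1 this median was 56.4 and PCDH17 stood at percentile 82.5 instead of 24.5. The median was 49.4 in gene bodies alone, where every gene but PCDH9 had 0 sites, and 78.0 within 500 kb. The windows of PCDH9 and PCDH18 hold no other canonical start of a protein-coding gene, where the median like gene has 2 and 9. Neither do those of PCDH7, PCDH10 and PCDH17, which have no site (median like gene 3, 6 and 5). The window of PCDH8 holds 4 other starts, against 13 for the median like gene, and that of PCDH20, without a site, holds 1, against 12.

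**Figure D1:**
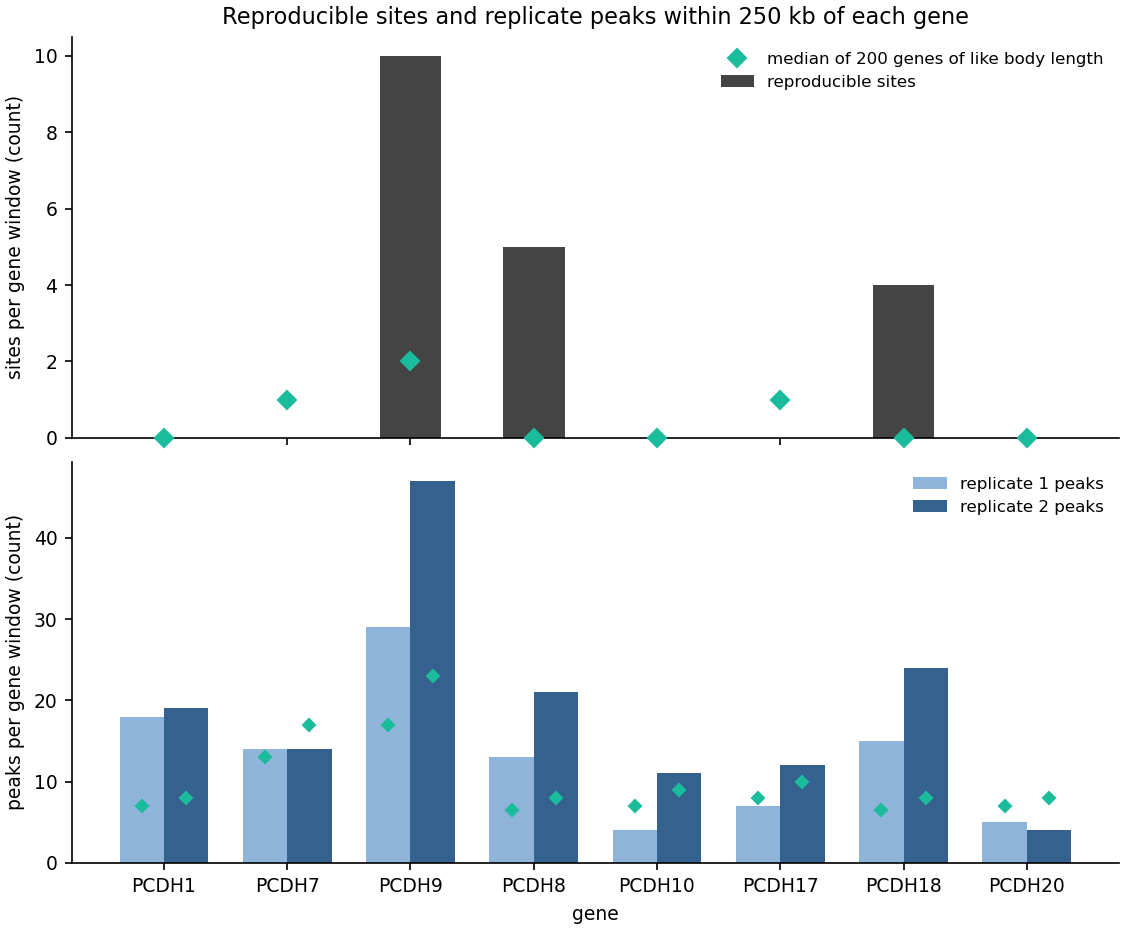
Number of reproducible sites (upper panel, bars) and of replicate 1 and replicate 2 peaks (lower panel, light and dark bars) with the summit in each gene body or within 250 kb, for the 8 delta protocadherins. Green diamonds are the median of the 200 genes of like body length; PCDH9, PCDH8 and PCDH18 have 10, 5 and 4 sites, and the other 5 genes have 0.

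The strongest site of the family lay in intron 2 of PCDH9, 101.9 kb into the gene, at chr13:67701130-67703590. Its −log10 p was 1552 (replicate 1) and 1360 (replicate 2), and its fold enrichment over Input was 86.3 and 138.3. The summits of the replicates were 3 bp apart. No other site of the 8 genes came near it: the next had a −log10 p of 341.0.

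The second site at PCDH9 lay in intron 3, 594.7 kb from the start, at chr13:67208473-67210317, and had a −log10 p of 532.9 (replicate 1) and 341.0 (replicate 2) (fold 41.8 and 55.0). The third lay in intron 4, 767.2 kb from the start, at chr13:67036764-67037851, with 213.4 and 191.0 (fold 19.3 and 32.8). These 3 sites, at ranks 9, 153 and 326 of all sites, were the only ones at the 8 genes among the strongest 516 sites, a 10th of the list. Each was stronger by −log10 p in replicate 1 and had the higher fold in replicate 2.

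Sites 4 to 7 of PCDH9 lay near the strongest one in intron 2. Site 4 (chr13:67673385-67675241) had 97.5 (replicate 1) and 103.6 (replicate 2), and site 5 (chr13:67690778-67692013) had 81.6 and 170.0. Site 5 was the most uneven of the 10 by fold, at 9.77 against 31.3. Site 6 (chr13:67656070-67657001) had 53.0 and 30.7, and site 7 (chr13:67633046-67634116) had 28.9 and 42.7. Together with the strongest site they form a run of 5 sites within 69.0 kb of an intron of 321.8 kb, spaced 11.3 to 23.1 kb apart. Of all sites, 0.987% (51) belong to a run of 5 that is as short or shorter. The limits of 5 sites and 69.0 kb were taken from this run. It is counted in the 51 and holds the site used to choose the family, so the share is a description only.

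The remaining PCDH9 sites were weaker and lay at the outskirts, with −log10 p from 19.4 to 25.5. Site 8 was 142.9 kb upstream of the start (chr13:67946950-67947794, 25.5 (replicate 1) and 40.5 (replicate 2)). Site 9 was in intron 4 (chr13:66918687-66919644, 19.8 and 43.0), and site 10 lay downstream of the gene, 1143 kb from its start (chr13:66661291-66662188, 19.4 and 23). Thus 8 of the 10 sites were in introns of PCDH9, which are 321.8, 272.1 and 326.2 kb long for introns 2, 3 and 4, and none was in an exon.

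PCDH8, also called arcadlin or paraxial protocadherin, had no site in its short body. Its strongest site (chr13:53529327-53531307) lay 107.3 kb upstream and had a −log10 p of 122.7 (replicate 1) and 150.8 (replicate 2), with a fold of 13.6 and 31.2. Site 2 (chr13:53505369-53506666) lay 83.3 kb upstream with 31.6 and 63.4, and site 3 (chr13:53383013-53383995) lay 39.1 kb from the start on the downstream side with 31.8 and 26.1. Site 4 (chr13:53535237-53536520) was 5.57 kb from the strongest, with 18.0 and 18.7, and site 5 (chr13:53597157-53598379) was 175.1 kb upstream with 17.9 and 23.8. Sites 1, 4 and 5 were nearer to the start of OLFM4, an olfactomedin gene, than to PCDH8, at 72.9, 67.3 and 5.06 kb.

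PCDH18, a delta-2 member that binds the reelin adaptor DAB1, had its 4 sites upstream, between 10.8 and 90.7 kb from the start, and PCDH18 was the nearest protein-coding gene of each. The strongest (chr4:138463935-138465472, 10.8 kb upstream) had a −log10 p of 129.0 (replicate 1) and 120.9 (replicate 2), with a fold of 15.0 and 19.8. The next 2, at chr4:138541938-138543062 (39.6 and 33.5) and chr4:138543929-138545103 (52.8 and 26.7), lay 1.85 kb apart. The weakest (chr4:138497610-138498316) had 13.8 and 23.1. The PCDH18 sites therefore lay on one side of a gene of 13.6 kb, unlike the intronic sites of PCDH9. The gene body takes up 13.6 kb of a window of 513.6 kb at PCDH18, and 927.6 kb of 1428 kb at PCDH9.

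**Figure D2:**
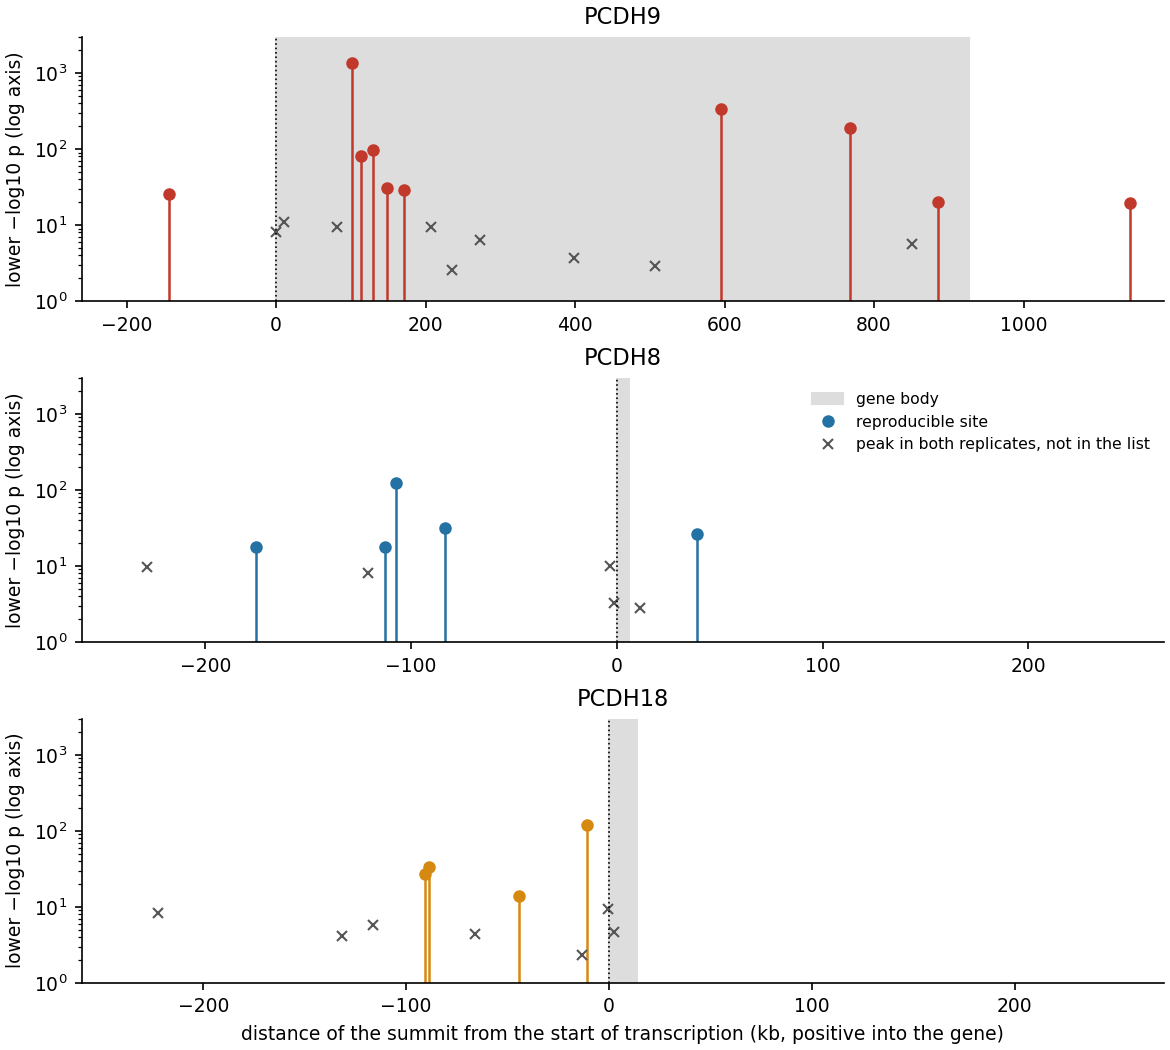
Distance of each summit from the start of transcription (kb, positive into the gene; grey, gene body) against the lower of the replicate −log10 p values (log axis) for PCDH9, PCDH8 and PCDH18. Filled points are reproducible sites and crosses are peaks found in both replicates that are not in the list; 5 PCDH9 sites stand between 101.9 and 170.9 kb, and the PCDH8 and PCDH18 sites stand outside the gene bodies.

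As a group, the 19 sites resembled the rest of the list in strength and position. Their median −log10 p was 30.7, against 29.3 over all sites, and 17 of 19 (89.5%) had the highest scaled IDR score of 1000, against 81.4%. Sites inside the canonical transcript of a protein-coding gene numbered 8 of 19 (42.1%), against 44.1%, and all 8 were in PCDH9. More than 20 kb from any canonical start were 17 of 19 (89.5%), against 82.0%, and 4 of 19 (21.1%) had another site within 10 kb, against 11.5%. Base composition was lower: the median GC content of the 500 bp around the summit was 38.0% at the 19 sites and 34.9% at the 10 PCDH9 sites, against 42.0% over all sites.

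The replicates were uneven in scale at these sites as in the whole list. The fold enrichment was higher in replicate 2 at 19 of 19 sites, against 97.4% of all sites, and the median ratio of replicate 2 to replicate 1 was 1.70, against 1.80. The −log10 p had a median ratio of 1.06 at the 19 sites, 1.12 at PCDH9, 1.23 at PCDH8 and 0.891 at PCDH18, against 1.16 over all sites. Summits of the replicates lay a median of 10 bp apart, against 11 bp over all sites.

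**Figure D3:**
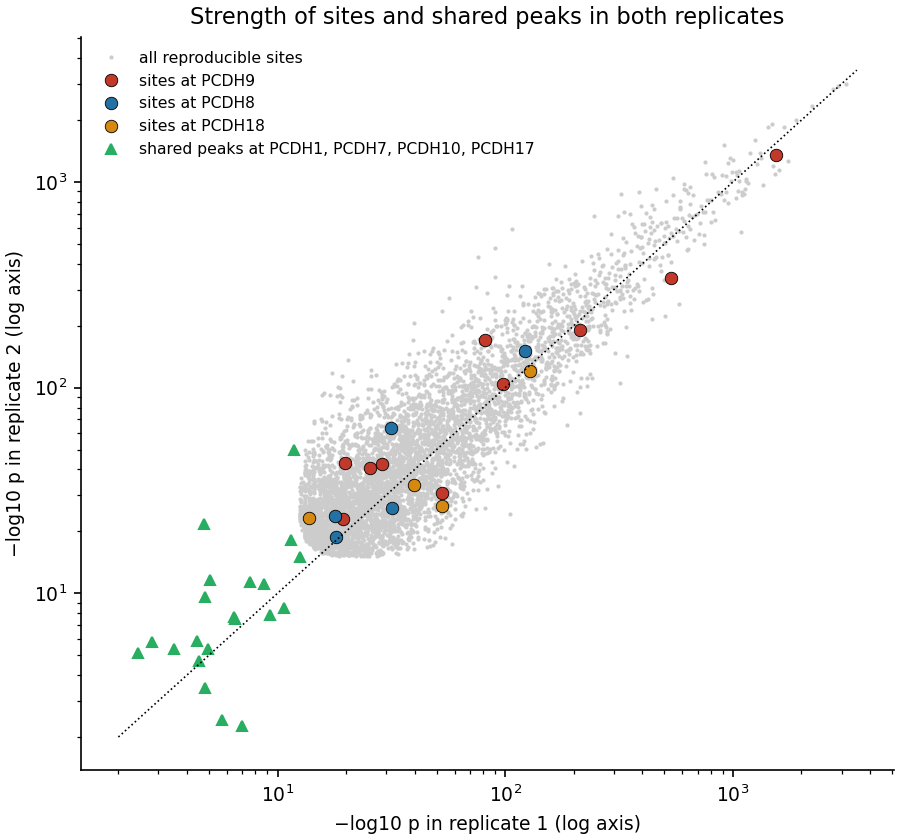
The −log10 p in replicate 1 (x) and replicate 2 (y), both on log axes, of all 5169 reproducible sites (grey), of the sites at PCDH9, PCDH8 and PCDH18 (circles), and of peaks shared by both replicates but outside the list at PCDH1, PCDH7, PCDH10 and PCDH17 (triangles). The PCDH9 sites run from 19.4 to 1360 by the lower value, and the strongest triangle at PCDH17 stands at 11.8 against 49.9.

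The sequence at the summits shows which sites hold the MEIS core. Below are 120 bases of GRCh37 (plus strand) centred on the summits of the 3 strongest PCDH9 sites and the strongest sites of PCDH8 and PCDH18, chosen because they are the strongest of their genes. Capitals mark TGACA, the first 5 bases of the core, or its reverse complement TGTCA, with the last base of the core where TGACAG is complete.
PCDH9 site 1, chr13:67702510-67702629: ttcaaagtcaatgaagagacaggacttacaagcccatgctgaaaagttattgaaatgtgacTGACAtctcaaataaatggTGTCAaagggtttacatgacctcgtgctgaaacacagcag
PCDH9 site 2, chr13:67209712-67209831: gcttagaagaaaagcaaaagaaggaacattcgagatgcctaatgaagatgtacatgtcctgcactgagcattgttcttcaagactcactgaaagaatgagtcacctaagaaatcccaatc
PCDH9 site 3, chr13:67037255-67037374: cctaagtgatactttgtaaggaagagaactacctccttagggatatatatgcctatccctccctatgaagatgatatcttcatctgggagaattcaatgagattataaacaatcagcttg
PCDH8 site 1, chr13:53529984-53530103: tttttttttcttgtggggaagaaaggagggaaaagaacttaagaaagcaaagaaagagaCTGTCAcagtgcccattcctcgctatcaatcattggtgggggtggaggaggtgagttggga
PCDH18 site 1, chr4:138464419-138464538: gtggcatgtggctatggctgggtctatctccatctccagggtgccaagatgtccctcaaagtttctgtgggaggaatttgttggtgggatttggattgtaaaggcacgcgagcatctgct

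At PCDH8 site 1 the complete core lies 2 bp from the summit. At PCDH9 site 1 the summit holds TGACA without the final G, inside the longer string TGACTGACA, and the nearest complete TGACAG is 176 bp away. The PBX-MEIS composite consensus was searched as TGA, then T or G, then TGACAG, and a loose form, TGANTGACA, was added after this sequence had been seen. PCDH9 site 1 holds the loose form 3 times within 250 bp of the summit, centred 1.5, 96.5 and 129.5 bp from it, and 14 of all 5169 sites (0.271%) hold it at least 3 times. Both the string and the minimum of 3 were taken from PCDH9 site 1, so this share is a description only. PCDH9 sites 2 and 3 and PCDH18 site 1 have neither TGACAG nor TGACA in the 120 bases, although all 3 are strong in both replicates.

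Within 500 bp centred on the summit, TGACAG on either strand was found at 9 of 19 sites (47.4%, Wilson 95% interval 27.3 to 68.3, which covers the number of sites alone), against 58.3% of all sites. By gene it was at 4 of 10 sites of PCDH9, 2 of 5 of PCDH8 and 3 of 4 of PCDH18. At 6 of the 9 (66.7%) the nearest copy was centred within 50 bp of the summit, against 67.9% of all sites that hold it. The pentamer TGACA within 50 bp of the summit, added after the data had been seen, was at 9 of 19 sites (47.4%, 27.3 to 68.3), against 70.3%. The loose composite was in the 500 bp of 3 of 19 sites, against 13.6%, and within 50 bp of the summit of 1, against 10.3%.

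The TGACAG copies nearest the summit are printed 5′ to 3′ on their own strand, with 12 bases on either side and the core in capitals, to show what follows and precedes the core at each gene.
PCDH9 site 1, chr13:67702731-67702760, minus: tggtgggcgaaaTGACAGagggagagagca
PCDH9 site 2, chr13:67209513-67209542, minus: tagtggcagtccTGACAGaaaataaagtgt
PCDH9 site 5, chr13:67691261-67691290, plus: tggtggcaaattTGACAGgttatagataag
PCDH9 site 8, chr13:67947346-67947375, plus: actggagcttccTGACAGgaacagagtgag
PCDH8 site 1, chr13:53530031-53530060, minus: gaatgggcactgTGACAGtctctttctttg
PCDH8 site 2, chr13:53505947-53505976, plus: tttcttttagacTGACAGatggtttcagtc
PCDH18 site 2, chr4:138542478-138542507, minus: ctttagtctcgcTGACAGggctggaggccc
PCDH18 site 3, chr4:138544314-138544343, minus: cacaagtctttcTGACAGatgatgtaccac
PCDH18 site 4, chr4:138497935-138497964, plus: ttagcctgacacTGACAGcttaatgaaatg

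The composite consensus was found at 1 of 19 sites (5.26%), against 4.93% of all sites, and this was site 8 of PCDH9, upstream of the gene, which also has a second TGACAG. It lies 53 bp from the summit and is shown with 10 bases on either side and the composite in capitals.
PCDH9 site 8, chr13:67947388-67947417, minus: tatctataagTGAGTGACAGaaaagtccag

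Consensus strings of other factor families were searched in the same 500 bp on both strands; none of them contains TGACAG, while TGACA is part of TGACAG and of both composites. The LHX homeodomain string TAATTA was at 6 of 19 sites (31.6%, 15.4 to 54.0), against 18.2% of all sites, with 5 of the 10 PCDH9 sites among them. TAATTA holds only A and T, and the median GC content was 34.9% at the PCDH9 sites, against 42.0% over all sites. Whether the share follows base composition was not tested. The SOX string (CC, then A or T, then TTGT) was at 4 of 19 (21.1%, 8.51 to 43.3), against 29.6%. The TEAD string GGAATG was at 7 of 19 (36.8%, 19.1 to 59.0), against 38.2%. The interval includes the share of all sites for each of these 3 strings.

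**Figure D4:**
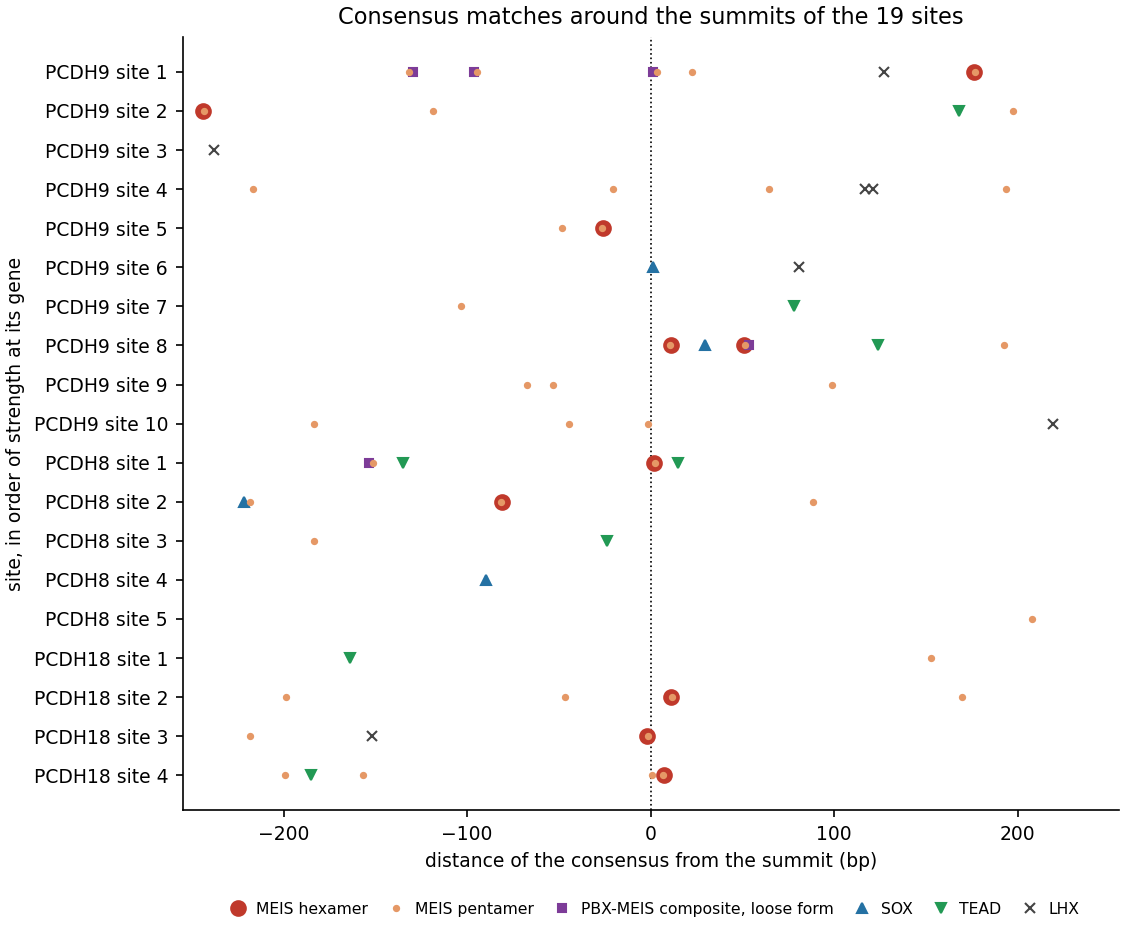
Position of each consensus match in the 500 bp around the summit (x, bp from the summit) for the 19 sites (y, in order of strength at each gene): MEIS hexamer TGACAG, MEIS pentamer TGACA, loose PBX-MEIS composite, SOX, TEAD and LHX. The hexamer is within 11 bp of the summit at PCDH8 site 1, PCDH9 site 8 and PCDH18 sites 2, 3 and 4, and PCDH9 site 1 has a loose composite at the summit.

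The peaks called in each replicate, those behind the sites included, give the signal at each of the 8 genes. Replicate 1 had 29 peaks at PCDH9, 13 at PCDH8 and 15 at PCDH18, and replicate 2 had 47, 21 and 24. At the genes without a site, PCDH1 had 18 peaks in replicate 1 and 19 in replicate 2, PCDH7 had 14 and 14, PCDH17 had 7 and 12, PCDH10 had 4 and 11, and PCDH20 had 5 and 4. In all there were 105 and 152 peaks, of which 19 in each replicate belong to the sites of the list. An overlap of 1 bp or more with the other replicate was found for 61 replicate 1 peaks (58.1%), against 49.0% of that whole list, and for 61 replicate 2 peaks (40.1%), against 38.0% of that list, and the 61 include the 19 at the sites.

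At the 3 genes with sites, further peaks were found in both replicates but not in the list. PCDH9 had 9 of them, with the lower −log10 p between 2.53 and 11, and 24 of its 29 replicate 1 peaks and 42 of its 47 replicate 2 peaks lay in the gene body. The strongest was in intron 2, 11 kb into the gene (chr13:67793052-67793841), with 17.1 (replicate 1) and 11 (replicate 2), and another in the same intron (chr13:67597503-67598011) had 9.46 and 23.7. PCDH18 had 7, of which one 222.6 kb upstream (chr4:138675691-138676631) had 20.7 (replicate 1) and 8.32 (replicate 2), with a fold of 4.56 and 4.29. PCDH8 had 5, and the strongest, 3.21 kb upstream of the start (chr13:53425584-53426722), had 11.9 and 10. Over the 8 genes the 42 shared peaks outside the list had a median lower −log10 p of 5.33 and a median distance between replicate summits of 86 bp, against 5.95 and 54 bp over all such peaks.

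PCDH1 had many peaks and no site. Its 18 and 19 peaks stood at percentiles 96.7 and 95 of genes of like length, where the medians are 7 and 8, but the highest −log10 p was 10.7 (replicate 1) and 11.3 (replicate 2). No PCDH1 peak of either replicate had its summit in the gene body (chr5:141232655-141258811, ENSG00000156453). A replicate 1 peak (4.05) reached into the body from a summit 11 bp outside it. The window holds the starts of 10 other protein-coding genes, where the median like gene has 8. The 10 peaks shared by both replicates there had lower values from 2.25 to 8.73.

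PCDH7 (ENSG00000169851, chr4:30721991-31148427, plus strand) came closest to the list. Its shared peak in intron 2 (chr4:30930976-30931812) had a −log10 p of 12.6 (replicate 1) and 15.0 (replicate 2), where the lowest value in the list is 12.5, and it was the 1 shared peak outside the list at the 8 genes with both values above that. Over all shared peaks outside the list, 725 of 12864 have both values at least that high. It lies 209.4 kb into the gene. A peak in intron 1, 116.9 kb into the gene (chr4:30838389-30839160), had 11.4 and 18.2.

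PCDH17 (ENSG00000118946, chr13:58205878-58303445, plus strand) had the shared peak with the highest ratio of replicate 2 to replicate 1 fold at the 8 genes. Its strongest peak (chr13:58372696-58373326), 167.2 kb from the start and downstream of the gene, had a −log10 p of 11.8 (replicate 1) and 49.9 (replicate 2), with a fold of 3.34 and 13.9. The ratio of folds was 4.17, and 0.864% of all shared peaks have a ratio as high, where the median is 1.56. A peak in intron 3 (chr13:58247223-58247864) had 4.74 and 21.6. With replicate 2 alone, taking its 5169 strongest peaks, PCDH17 counts 2 sites, and with replicate 1 alone it counts 0.

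PCDH10 (ENSG00000138650, chr4:134070449-134129761, plus strand), a delta-2 member also called OL-protocadherin, had its strongest peaks in replicate 2 alone. These had a −log10 p of 18.5, 168.0 kb from the start and downstream of the gene (chr4:134237995-134238721), and 16.4, 52.4 kb upstream (chr4:134017779-134018530). Neither overlapped a replicate 1 peak, and the highest value in replicate 1 was 6.48. PCDH20 (ENSG00000280165, chr13:61983818-61989982, minus strand) had the weakest signal of the 8, with maxima of 5.61 and 4.35 and no shared peak.

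The sites lay away from the starts of the 8 genes, and the peaks near the starts were weak. At PCDH9, a peak in both replicates in the 5′ untranslated part of exon 1 had a −log10 p of 9.83 (replicate 1) and 8 (replicate 2), against 1552 and 1360 at the site in intron 2. At PCDH18 a peak 0.282 kb upstream had 9.36 and 12, and a peak in the coding part of exon 1 had 8.02 and 4.63. At PCDH10 a peak 0.525 kb upstream had 6.48 and 7.53. Of the others, PCDH1, PCDH17 and PCDH20 had a peak summit within 1 kb of an annotated start in replicate 1 alone (4.05, 3.07 and 3.33). PCDH7 had weak summits there in both replicates (2.44 and 5.38), which belong to different peaks that do not overlap. PCDH8 had no summit within 1 kb. A shared PCDH8 peak with summits 1.21 kb (replicate 1) and 1.37 kb (replicate 2) upstream had 6.8 and 3.26, and its replicate 1 interval reached the start.

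Several of these weaker shared peaks hold TGACAG. The copies below belong to shared peaks within 1 kb of an annotated start of PCDH9, PCDH10 and PCDH18. The others belong to the strongest shared peak with a copy at each of PCDH1, PCDH7 and PCDH17, which have no site. The PCDH18 peak shown lies 2.36 kb into the gene from its canonical start and 561 bp from another annotated start. The PCDH18 peak 0.282 kb upstream has no TGACAG in the 500 bp around its summit.
PCDH9 exon 1, untranslated, chr13:67804301-67804330, plus: atgatgattctcTGACAGctatccgggtga
PCDH10 upstream of the start, chr4:134069775-134069804, minus: aggatgtggggaTGACAGcgcttacagacg
PCDH18 exon 1, coding, chr4:138451266-138451295, plus: ctgaatgataacTGACAGctcccattctgt
PCDH17 exon 3, coding, chr13:58240852-58240881, plus: cagtgatcaggcTGACAGtgaccaagacac
PCDH7 intron 1, chr4:30848854-30848883, plus: tatgtggtggatTGACAGaagacagatgca
PCDH1 upstream, chr5:141404333-141404362, minus: tggacttacgagTGACAGatgtactgaagc

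The copies in PCDH17 exon 3 and PCDH18 exon 1 are centred 11 and 10 bp from the replicate 1 summit, and the PCDH10 copy 134 bp from it. The peaks themselves had a −log10 p of 6.46 and 7.68 in exon 3 of PCDH17, 5.07 and 11.6 in intron 1 of PCDH7 and 8.73 and 11.1 upstream of PCDH1. In the RefSeq promoter sequences (GRCh38.p14, 250 bases before to 50 after the start), which matched 6 of the 8 genes, TGACAG was in 0, against 15.8% of 35116 promoters.

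TGACAG was also counted by class of peak at the 8 genes. Of the 42 shared peaks outside the list it was in 20 by the replicate 1 summit (47.6%) and in 22 by the replicate 2 summit (52.4%), against 51.3% and 51.5% of such peaks in the whole series. Of the peaks found in replicate 1 alone it was in 13 of 44 (29.5%, 18.2 to 44.2), against 38.5%. Of those found in replicate 2 alone it was in 47 of 91 (51.6%, 41.5 to 61.6), against 41.4%. The difference between shared and unshared peaks was not tested.

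Other adhesion genes and partners give a scale for the family. Among 18 classical cadherins, calcium-dependent adhesion proteins with a different cytoplasmic tail, 15 (83.3%) had at least 1 site, against 48.8% of all autosomal protein-coding genes. Their median body was 149.0 kb, against 27.6 kb over all these genes. They had 34 sites in all, and their median percentile by body length was 61.5. CDH2, N-cadherin of neural progenitors, had the most with 8. Among 12 WAVE complex genes and other partners of delta protocadherins, 5 (41.7%) had a site, near the 48.8% of all genes. Their median percentile was 26.5, where genes without a site again stand by their ties at 0. They had 14 sites in all, of which 9 were at DAB1, the reelin adaptor that PCDH18 binds. The region of the 53 clustered protocadherin genes (chr5:140165721-140892544), which carry neuronal self-recognition, held 1 site in its 726.8 kb and 2 with the extension by 250 kb used for the genes. PCDH9 had more sites than any gene of these lists, counted without regard to length. Its body of 927.6 kb compares with median bodies of 149.0 kb (cadherins) and 114.3 kb (partners), and a longer gene has a longer window.

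Of the genes outside its window, 6 had the same number of sites as PCDH9. The 3 whose strongest site was nearest to that of PCDH9 in log10 of −log10 p were CUBN, which encodes the endocytic receptor cubilin (1261), and the overlapping annotations RBMS3 and ENSG00000283563, which share a strongest site of 583.5. These sites were counted in the gene body or within 250 kb of it, and their position relative to the body is not given here. CUBN has a body of 305.8 kb and RBMS3 one of 1436 kb, against 927.6 kb for PCDH9.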

How the data were processed

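MEIS ChIP-seq was analysed in 2 ChIP and 2 Input samples of hNSC, grouped by their titles. Per the labels and the study's methods, 36 bp paired-end reads were trimmed with cutadapt 1.16, mapped to GRCh37 (hg19) with Bowtie2 2.3.0, filtered at a mapping quality of 30 with SAMtools 1.2, which loses repeated sequence, and cleared of duplicates with Picard 2.15.0. The authors ran MACS2 on each replicate separately against Input at a p-value of 0.01 (MACS2 version not given in the sources used here) and kept reproducible sites with IDR 2.0.3. The wash protocol, for which the methods give alternatives, is not tied to a replicate.

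For each peak the authors deposited its fold enrichment over Input (a linear ratio), its −log10 p and its −log10 q. The deposited IDR list gives a scaled score, a −log10 p and a summit, and 8 columns of per-replicate values that were not used. Values of a site in a replicate are those of the strongest overlapping peak. No read counts are part of these lists, so the depth is unknown and no interval covers it.

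Each peak was checked to lie within its GRCh37 chromosome. Positions are those of the canonical transcript in GENCODE 44 mapped to GRCh37. Summits within the gene body extended by 250 kb were counted. Percentiles count genes with fewer sites plus 0.5 of those with as many. Strings were searched on both strands. Shares carry Wilson 95% intervals, and no test was run: with 1 condition and 2 replicates there are no groups to compare. The members and lists were chosen with earlier results of these data known. The rule for naming took the 8 genes, their sites, the strongest peaks of genes without a site, fixed comparison lists and the 3 genes most like PCDH9. The functions were tested on simulated data. Scripts ran in Python 3.11.15 with numpy 2.4.6, pandas 2.3.3, scipy 1.17.1 and matplotlib 3.10.9.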

Additional observations from a re-analysis of the deposited data

How the results depend on the processing

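Of 46 alternatives to 10 results, 29 left the value within its error or within 1.5 times. These limits are wide. The error of the median percentile was 20.5, the standard deviation of the 2 medians with a replicate left out, which are themselves among the alternatives. A median percentile of 40.2 within 100 kb, against 28.2, thus counted as unchanged, as did 28 sites within 500 kb, against 19. In the gene bodies alone there were 8 sites at 1 gene, PCDH9, with a median percentile of 49.4, and within 500 kb sites fell at 5 genes, PCDH1 and PCDH10 added, with a median percentile of 78.0, and 158 and 230 peaks in replicates 1 and 2. With a −log10 p minimum of 5, peaks numbered 51 and 78. The share of overlapping peaks was 38.1% and 26.3% for summits within 100 bp, and 80.4% and 52.6% for peaks of at least 5 in both lists. TGACAG was in 89.5% of the whole sites as deposited, against 75.2% of all sites. The median −log10 p was 39.6 by replicate 1 and 42.7 by replicate 2, since the list holds the lower value of each site.

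Leaving out each replicate in turn gave 19 to 21 sites at 3 to 4 genes, TGACAG at 47.4% to 52.4%, and a median percentile of 27.4 to 56.4, the highest without replicate 1, where PCDH17 gained 2 sites and stood at percentile 82.5. No paired analysis was possible because the results come from 1 condition and no test. Depth is unknown, so a gene without a site may have binding below what these libraries show.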
